A study of Bos taurus with 9 samples.

Results

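The genes described here had at least 1 FPKM in all 3 libraries of bovine 2-cell embryos made by in vitro fertilisation (IVF) and under 1 FPKM in all 3 libraries of 2-cell embryos made by somatic cell nuclear transfer (SCNT). FPKM is the number of sequenced fragments from a gene, divided by its transcript length and by the library's total. Of 24616 genes in the table, 63 met this rule. They were divided by their level in mature, unfertilised oocytes at second meiotic metaphase (MII): 25 were under 1 FPKM in all 3 MII libraries, 9 were at 1 FPKM or more in all 3, and 29 were mixed. The IVF and SCNT values chose the genes and the MII values divided them, so the levels of these genes in the 3 groups are a description.

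All oocytes and embryos were labelled as Holstein cattle. An IVF or SCNT library came from a pool of 6 embryos and an MII library from a pool of 3 oocytes, so stage and pool size changed together. The MII samples carry the developmental stage oocyte, although their tissue label reads wild embryos. The donor cells of the SCNT embryos, the ages of the animals and any agents used in culture are not given in the sources used here. Nothing in the labels ties pools to separate animals or culture runs. The p-values therefore measure only the spread between these libraries, which may be technical. In pooled embryos, fewer embryos with a transcript and less of it in each embryo cannot be told apart.

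A 2-cell bovine embryo lives mainly on RNA and protein stored in the egg. Its own genome is transcribed weakly at first and more strongly at later cleavage stages, while stored RNAs are gradually removed. In an IVF embryo the genome comes from egg and sperm. In an SCNT embryo it comes from a differentiated cell whose chromatin has to be reset by the egg's cytoplasm. A transcript near the limit of detection in the embryo can thus be a remnant of the egg's store, an early product of the embryo's genome, or both, and its level alone does not tell these apart.

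The files hold identifiers without gene names, so the genes are described by number, level and pattern, with identifiers for 6 of them. For the same reason, the labelled cell types were not checked against marker genes. The absolute read depth is unknown. The steps between low FPKM values gave a relative depth of 96.6% to 97.3% of SCNT replicate 3 for the IVF libraries, 95.9% to 100% for the SCNT libraries, and 80.7%, 94.0% and 99.3% for MII replicates 1, 2 and 3. These estimates are approximate, since outside SCNT replicate 3 itself only 9.64% to 28.7% of the genes used lay within 0.015 of the commonest log2 ratio.

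Most of the 63 genes were low in both kinds of embryo and were not absent from SCNT embryos. In 57 of the 63 genes, all 3 SCNT libraries held a value above 0 FPKM. Only 1 gene was listed at 0 in every SCNT library, and 6 were listed at 0 in at least 1. A listed 0 may be a failed estimate. By library, the median over the 63 genes was 0.696, 0.782 and 0.722 FPKM for SCNT replicates 1, 2 and 3. It was 1.31, 1.36 and 1.502 FPKM for IVF replicates 1, 2 and 3. The description of these genes as detected in IVF and not in SCNT embryos therefore held for a limit of 1 FPKM and not for any signal at all.

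The levels crowded around that limit. In 52 of the 63 genes the IVF mean was under 2 FPKM, and the highest IVF value of any gene was 14.9 FPKM. The gap between the lowest IVF and the highest SCNT library had a median of 0.337 FPKM and ran from 0.0293 to 1.58 FPKM. It was under 0.25 FPKM in 17 genes and at least 0.5 FPKM in 18. The ratio of the IVF to the SCNT mean had a median of 1.95 and was 1.37 at its lowest. It was at least 2 in 30 of the 62 genes with an SCNT mean above 0, and at least 4 in 7 of them.

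**Figure D1:**
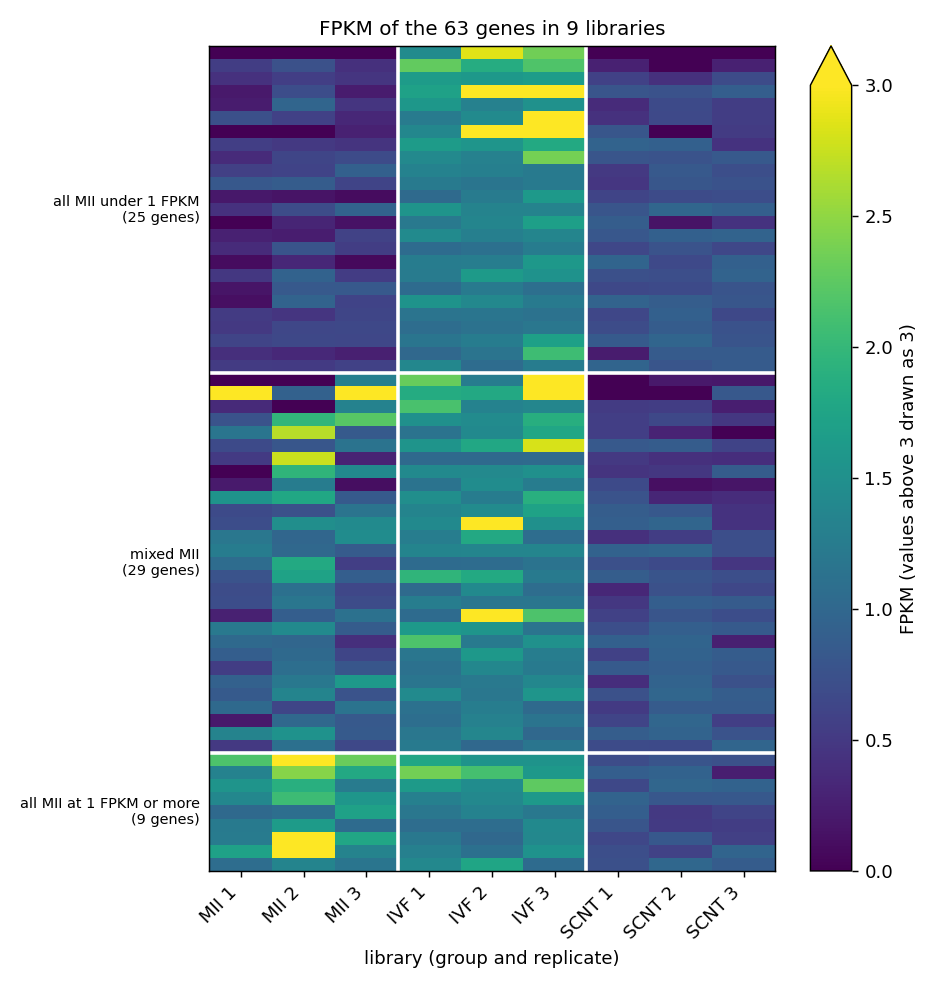
FPKM of the 63 genes (rows) in 9 libraries (columns), with genes grouped by oocyte class and ordered within a class by the gap between IVF and SCNT libraries; colour gives FPKM, and values above 3 are drawn as 3. The IVF columns are at 1 FPKM or more and the SCNT columns under 1 FPKM by the rule, while the MII columns differ between the 3 classes.

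In the gene with the narrowest gap, IVF replicates 1 to 3 were at 1.23, 1.013 and 1.17 FPKM, and SCNT replicates 1 to 3 at 0.682, 0.673 and 0.984 FPKM. Just outside, 1 gene missed the rule because SCNT replicate 1 was at 1.00218 FPKM, with 0.570 and 0.450 FPKM in the other SCNT libraries and 1.49, 1.03 and 1.13 FPKM in the IVF libraries. Another missed it because IVF replicate 1 was at 0.998894 FPKM, with its SCNT libraries between 0.886 and 0.958 FPKM. In all, 152 genes failed in a single SCNT library and 186 in a single IVF library, so more genes lay 1 library away from the rule than met it. SCNT replicate 2 was the library at fault in 92 of those 152 genes. It was also the highest SCNT library in 32 of the 63 genes that met the rule, whereas SCNT replicate 1 was lowest or tied for lowest in 27.

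Within the IVF group, most of the genes had similar values in the 3 pools. The highest IVF library was 1.31 times the lowest in the median gene, and at least 2 times the lowest in 7 genes. IVF replicate 3 was the highest library in 31 of the 63 genes, against 15 for replicate 1 and 17 for replicate 2. At 2 FPKM or more there were 12 of the genes in IVF replicate 3, against 5 and 6 in replicates 1 and 2. The part of this library in the individual genes was not tested beyond leaving it out.

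Most of the 63 genes came from the low end of the genes measured in IVF embryos. Of the 8730 genes at 1 FPKM or more in all IVF libraries, 8221 were also at 1 FPKM or more in all SCNT libraries, and 0.7% were among the 63. With an IVF mean under 2 FPKM there were 668 such genes, of which 295 stayed at 1 FPKM or more in all SCNT libraries, 192 were under it in 1 library, 129 in 2 and 52 in all 3. The rule thus took 7.8% of the genes of this level. The median log2 change from IVF to SCNT embryos, on the log2(FPKM + 1) scale, was -0.46 over the 63 genes, -0.21 over the 668 genes and -0.25 over all 9458 genes tested. In the same order the medians were -0.33, -0.07 and -0.04 after median-ratio scaling and -0.30, -0.03 and -0.03 after quantile normalization, so those of the wider gene sets came close to 0. The value of the 63 genes follows from the rule.

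**Figure D2:**
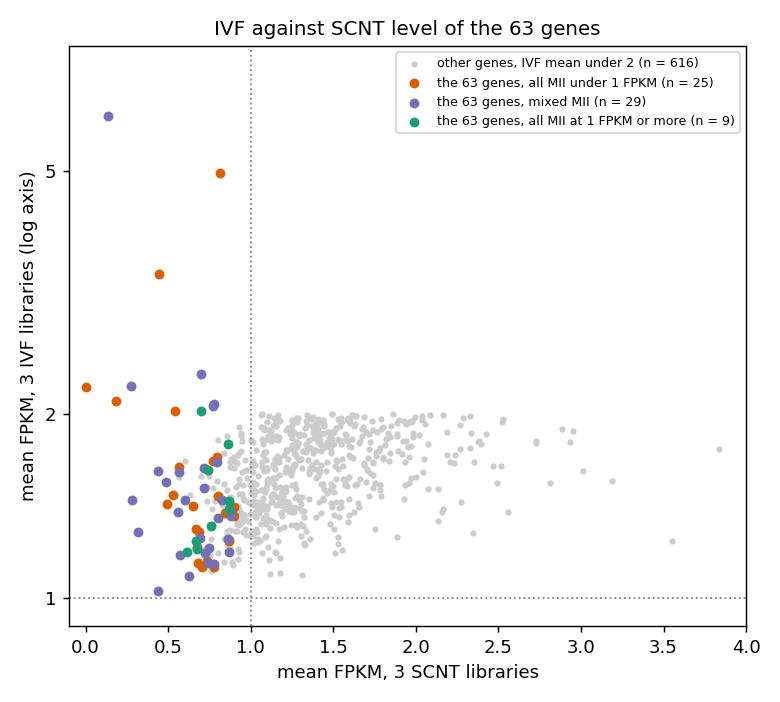
Mean FPKM of 3 IVF libraries (vertical, log axis) against mean FPKM of 3 SCNT libraries (horizontal) for the 63 genes, coloured by oocyte class, and in grey for 616 further genes at 1 FPKM or more in all IVF libraries with an IVF mean under 2 FPKM (2 of them lie beyond the right edge). Dotted lines mark 1 FPKM; most of the 63 genes sit against the edge of the grey cloud, and 11 have an IVF mean of 2 FPKM or more.

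The 25 genes under 1 FPKM in every oocyte library were at their highest in IVF embryos, which the rule and the division fix. The medians of their group means were 0.551 FPKM in MII oocytes, 1.41 FPKM in IVF embryos and 0.704 FPKM in SCNT embryos. In 19 of the 25 genes the SCNT mean lay between the oocyte and the IVF mean, and in 9 of the 25 all SCNT libraries were above all MII libraries (36%, where 37.3% of all genes tested showed this). In the remaining 6 the oocyte mean was at or above the SCNT mean and below the IVF mean. In those 19 genes both embryo means were thus above the oocyte mean, an order that dividing by low oocyte values favours. The share of all genes with this order of means was not counted, so nothing is read from it. That only the IVF values reached 1 FPKM is set by the rule and the division. They are a small part of the genes that crossed the limit from oocyte to IVF embryo: of 553 genes under 1 FPKM in all MII and at 1 FPKM or more in all IVF libraries, 335 were also at 1 FPKM or more in all SCNT libraries, 118 were under it in 1 SCNT library, 75 in 2 and 25 in all 3.

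ENSBTAG00000015260 was the gene listed at 0 in all SCNT libraries. It had 1.45, 2.86 and 2.35 FPKM in IVF replicates 1, 2 and 3 (2.22 ± 0.715 FPKM, SD, n = 3), and it was listed at 0 in all 3 MII libraries as well. Its signal was therefore seen in the IVF pools alone among these 9 libraries, and no fold is given against groups listed at 0. ENSBTAG00000037673 had IVF values of 2.28, 1.85 and 2.17 FPKM in replicates 1 to 3, MII values of 0.543, 0.740 and 0.421 FPKM, and SCNT values of 0.278, 0 and 0.273 FPKM. The 3 groups did not overlap, with IVF embryos highest (2.10 ± 0.220 FPKM, SD, n = 3), oocytes between (0.568 ± 0.161 FPKM, SD, n = 3) and SCNT embryos lowest (0.184 ± 0.159 FPKM, SD, n = 3). Its gap of 1.58 FPKM between the IVF and SCNT libraries was the widest of the 63 genes. Relative to oocytes its log2 change was 0.99 (SE 0.170) in IVF and -0.41 (SE 0.170) in SCNT embryos. The change to SCNT embryos did not pass the threshold of 0.05 (limma, adjusted p = 0.0642). It passed in 3 of 16 alternatives.

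The 29 mixed genes had oocyte values on both sides of 1 FPKM. The medians of their group means were 0.989 FPKM in MII oocytes, 1.40 FPKM in IVF embryos and 0.717 FPKM in SCNT embryos. The oocyte mean lay between the SCNT and IVF means in 20 of the 29 genes, below the SCNT mean in 3 and above the IVF mean in 6. The median SD was 0.353 FPKM in oocytes, 0.214 FPKM in IVF and 0.177 FPKM in SCNT embryos. A wider oocyte spread is partly built in here. The mixed class needs oocyte values on both sides of 1 FPKM, and the rule keeps each embryo group on 1 side. In the same order the median SDs were 0.159, 0.166 and 0.117 FPKM in the class under 1 FPKM. They were 0.381, 0.198 and 0.155 FPKM in the class at 1 FPKM or more. In 16 of the 29 genes a single oocyte library reached 1 FPKM, and that library was MII replicate 2 in 10 of them, replicate 3 in 5 and replicate 1 in 1. Over all 63 genes, MII replicate 2 was the highest oocyte library in 36. MII replicate 1, the shallowest by the steps of low values, was lowest or tied for lowest in 33. The part of depth in this was not tested. Without MII replicate 2 the division would be 35 genes with both remaining oocyte libraries under 1 FPKM, 16 mixed and 12 with both at 1 FPKM or more. Without MII replicate 1 it would be 26, 24 and 13, and without MII replicate 3 it would be 30, 18 and 15. With fewer libraries to divide by, the mixed class can only shrink, so these counts are no test of the division.

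ENSBTAG00000003152 had the highest IVF value of the 63 genes, in 1 library. Its IVF values were 2.30, 1.26 and 14.9 FPKM in replicates 1 to 3, its SCNT values 0, 0.206 and 0.192 FPKM, and its MII values 0, 0 and 1.30 FPKM. The highest IVF library was 11.8 times the lowest, and replicate 3 made up most of the IVF mean (6.15 ± 7.58 FPKM, SD, n = 3). The log2 change from IVF to SCNT embryos, lower by the rule, was -2.12 with all libraries and -1.27 without IVF replicate 3. IVF and MII libraries overlapped, and the log2 change from oocytes to SCNT embryos, -0.23 (SE 0.594), turned to 0.17 without MII replicate 3. ENSBTAG00000027075 showed the opposite arrangement, with the oocyte as its highest group on average. Its MII values were 4.70, 0.936 and 3.72 FPKM in replicates 1 to 3, its IVF values 1.84, 1.81 and 3.02 FPKM, and its SCNT values 0, 0 and 0.823 FPKM. All SCNT libraries were below all oocyte libraries (log2 change -1.61, SE 0.382). IVF and oocyte libraries overlapped (log2 change -0.23, SE 0.382), with 0.07 when MII replicate 1 was left out.

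**Figure D3:**
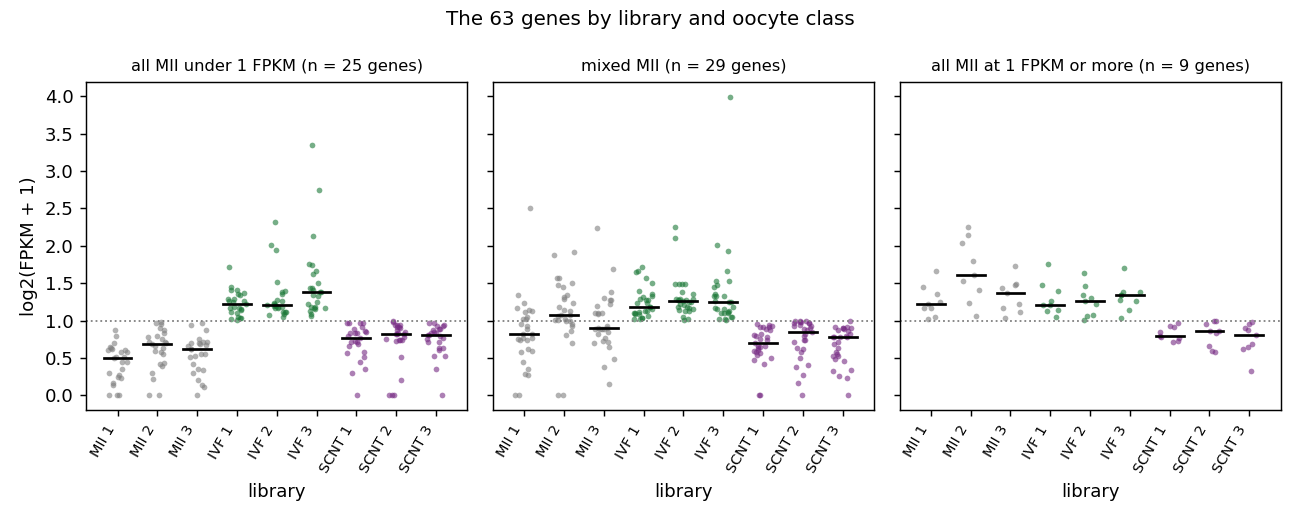
log2(FPKM + 1) of each of the 63 genes in each library, with 1 panel per oocyte class; a point is a gene, a black bar the median of the class in that library, and the dotted line 1 FPKM. In the class under 1 FPKM the SCNT medians lie between those of MII and IVF libraries, and in the class at 1 FPKM or more the MII and IVF libraries lie together above the SCNT libraries. By the rule and the division, IVF is highest in the former class and SCNT lowest in the latter.

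In the 9 genes at 1 FPKM or more in every oocyte library, the ratio of the oocyte to the IVF mean ran from 0.855 to 1.79. It was under 1.2 in 6 genes and at least 1.57 in the other 3. The medians of their group means were 1.67 FPKM in MII oocytes, 1.40 FPKM in IVF embryos and 0.741 FPKM in SCNT embryos. The oocyte mean was above the IVF mean in 6 of the 9 genes and between the SCNT and IVF means in 3. The MII libraries were all above the SCNT libraries in all 9, which the rule and the division fix. Over the 63 genes this order was seen in 15 (23.8%, and 21.8% of all genes tested). Only 1 of the 9 had MII and IVF libraries that did not overlap, with MII higher, an order that 11.6% of all genes tested showed. Such losses of an oocyte transcript past 1 FPKM were few: 7384 genes were at 1 FPKM or more in all MII and all IVF libraries, and 7258 of these were at 1 FPKM or more in all SCNT libraries too. Few of the 7384 genes were near the limit, however. Of them, 136 had an IVF mean under 2 FPKM, and the rule took 8 of these 136 (5.9%).

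ENSBTAG00000046054 was that gene. MII replicates 1 to 3 were at 2.164, 3.12 and 2.32 FPKM, the IVF libraries at 1.77, 1.54 and 1.55 FPKM, and the SCNT libraries at 0.696, 0.782 and 0.747 FPKM. The 3 groups formed 3 steps without overlap, at 2.54 ± 0.516 FPKM in oocytes, 1.62 ± 0.131 FPKM in IVF embryos and 0.741 ± 0.0433 FPKM in SCNT embryos (SD, n = 3 each). Its log2 change from the oocyte was -0.42 (SE 0.162) in IVF embryos and -1.012 (SE 0.162) in SCNT embryos. ENSBTAG00000030910 was at 1.33, 2.46 and 1.82 FPKM in MII libraries 1 to 3, with IVF values of 2.37, 2.11 and 1.60 FPKM and SCNT values of 0.899, 0.941 and 0.253 FPKM. Oocyte and IVF libraries overlapped, and the log2 change of 0.09 (SE 0.224) from oocytes to IVF embryos was -0.07 after median-ratio scaling, -0.52 after quantile normalization and -0.05 when MII replicate 1 was left out. All SCNT libraries were below all oocyte libraries (log2 change -0.77, SE 0.224), with SCNT replicate 3 far below the other two.

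**Figure D4:**
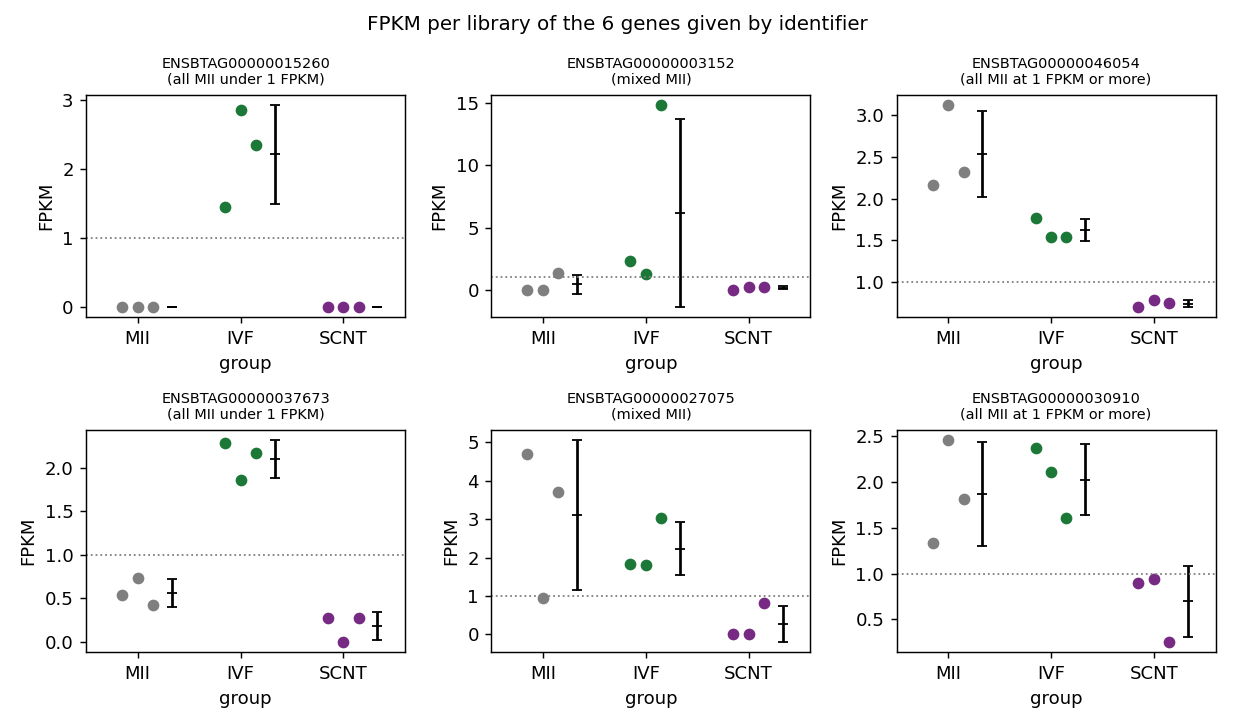
FPKM per library of the 6 genes given by identifier, with 2 genes of 1 oocyte class in each column of panels; points are the 3 libraries of a group in replicate order, black marks the mean with its SD, and the dotted line 1 FPKM. ENSBTAG00000015260 is at 0 in MII and SCNT, and ENSBTAG00000003152 owes most of its IVF mean to 1 library at 14.9 FPKM. ENSBTAG00000046054 falls in 3 steps from MII to IVF to SCNT.

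The share of genes that met the rule did not follow the oocyte class in a simple order once the level was held alike. Among genes at 1 FPKM or more in all IVF libraries with an IVF mean under 2 FPKM, the rule took 20 of 304 genes (6.6%) under 1 FPKM in all oocyte libraries, 24 of 228 mixed genes (10.5%) and 8 of 136 genes (5.9%) at 1 FPKM or more in all of them. Seen the other way, 38.5% of the 52 selected genes of this level and 46.1% of the 616 others were under 1 FPKM in all oocyte libraries. These shares were not tested.

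In the fit over all 9458 genes, few of the 63 differences between SCNT and IVF embryos passed the threshold. Limma on log2(FPKM + 1), with an adjusted p under 0.05, called 2 of the 63 genes, ENSBTAG00000015260 and ENSBTAG00000037673, both lower in SCNT embryos. Of all genes tested it called 0.18%, with 0.0634% lower and 0.116% higher. At an adjusted p under 0.1 it called 26 of the 63, where it called 15.1% of all genes. At an unadjusted p under 0.05 it called 40 of the 63 and 30.2% of all genes. The rule selected on this contrast, so nothing is read from these shares. By the rule all 63 genes had SCNT libraries below all IVF libraries, a separation that 36.7% of all genes tested showed, while 4.63% showed the reverse. The call of ENSBTAG00000015260 was kept in all 16 alternatives, although libraries listed at 0 add no spread and its error may be too small. The call of ENSBTAG00000037673 was kept in 15 and lost with a pseudocount of 0.1 (limma, adjusted p = 0.0726). The count of 2 was 4 without IVF replicate 1 (0.169% of all genes called). It was 15 when only the 6 IVF and SCNT libraries were fitted and 21 without MII replicate 2, fits in which 13.4% and 17% of all genes were called. MII replicate 2 enters this comparison only through the shared estimate of the spread.

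Against oocytes, limma called 28 of the 63 genes in IVF embryos, 27 higher and 1 lower, at an adjusted p under 0.05. Of all genes tested it called 54%. The share called higher was 42.9%, and 44.5% of all genes tested were called higher. The share called lower was 1.6%, where 9.47% of all genes were called lower. Of the 27 higher genes, 23 were in the class under 1 FPKM in all oocyte libraries and 4 in the mixed class, and the lower gene was ENSBTAG00000046054. The limma call of that gene was near the threshold (adjusted p = 0.0453) and was lost in 13 of 16 alternatives, with an adjusted p of up to 0.119 and the same direction throughout. It was lost when any 1 of the IVF or SCNT libraries was left out, without MII replicate 2 (log2 change -0.31) and without MII replicate 3. All IVF libraries were above all MII libraries in 33 of the 63 genes (52.4%) and in 48.4% of all genes tested. The median log2 change from oocytes to IVF embryos was 0.42 over the 63 genes, 0.40 over all genes and 0.51 over the 668 genes with an IVF mean under 2 FPKM. The IVF values that chose the 63 genes and the MII values that divided them take part in this comparison. The split of its calls by class therefore largely follows from the rule and the division. The count of 28 was 18 without MII replicate 1, 16 higher and 2 lower, when 46.1% of all genes were called. Quantile normalization also gave 18, of which 7 were higher and 11 lower, with 45.1% of all genes called. That scaling also lowered the medians of the wider gene sets, with -0.09 over the 63 genes, -0.03 over all genes and -0.01 over the 668 genes.

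From oocytes to SCNT embryos, limma called 14 of the 63 genes at an adjusted p under 0.05, and 51.9% of all genes tested. There were 3 higher genes (4.8% of the 63, where 33.8% of all genes were called higher) and 11 lower genes (17.5%, where 18.1% of all genes were called lower). The 3 higher genes were all in the class under 1 FPKM in oocytes. Of the 11 lower genes, 5 were mixed and 6 were in the class at 1 FPKM or more. The MII values compared here also set the classes, so this split largely follows from the division. The median log2 change was -0.08 over the 63 genes, 0.16 over all genes and 0.31 over the 668 genes with an IVF mean under 2 FPKM. The rule caps the SCNT values at 1 FPKM, which by itself lowers the share of higher genes and the median. The count of 14 was 8 without MII replicate 2, without SCNT replicate 2 or without SCNT replicate 3, fits in which 42.9% to 47.2% of all genes were called. Quantile normalization gave 30 (1 higher and 29 lower) and called 54.7% of all genes. The comparisons with oocytes share the MII libraries and are given side by side only.

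Turned around, the rule found fewer genes for FPKM as deposited. At 1 FPKM or more in all SCNT libraries and under 1 FPKM in all IVF libraries there were 11 genes, against the 63. Of these 11, 8 were under 1 FPKM in all oocyte libraries, and 2 were listed at 0 in all IVF libraries. For genes with a mean under 2 FPKM in the group at 1 FPKM or more, the shares were 8 of 687 (1.2%) on the SCNT side and 52 of 668 (7.8%) on the IVF side. The imbalance was present at other limits too, with 38 against 19 genes at 0.5 FPKM, 83 against 12 at 2 FPKM, 121 against 8 at 5 FPKM and 167 against 10 at 10 FPKM.

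The imbalance depended on how the libraries were scaled. The FPKM totals were 1197565 to 1206014 in IVF and 1276123 to 1294594 in SCNT libraries, without overlap. Rescaling each library to the mean of the 9 totals gave 90 against 9 genes at 1 FPKM, and the 90 include all 63, since it raised the IVF and lowered the SCNT values. Rescaling to a common total of 1000000 gave 108 against 12 genes, 32 of the 108 being among the 63. The latter also raised the limit, since 1 FPKM after it stood for 1.15 to 1.39 FPKM as deposited. Median-ratio scaling brings the typical gene of each library to the same level, using genes of 10 FPKM or more on average and above 0 in every library. It multiplied IVF libraries by 0.853 to 0.908 and SCNT libraries by 1.03 to 1.09. It gave 31 against 27 genes, and all 31 are among the 63, as these factors require. Quantile normalization, which makes the distributions of all libraries equal, gave 32 against 28 genes, 18 of them among the 63. At 0.5 and 2 FPKM both of these scalings gave fewer genes on the IVF than on the SCNT side, with 18 against 34 and 26 against 28 for median-ratio scaling and 18 against 32 and 17 against 36 for quantile normalization. At 5 FPKM they differed, with 41 against 22 genes for median-ratio scaling and 26 against 38 for quantile normalization. At 10 FPKM both gave more on the IVF side, with 43 against 15 and 29 against 23. Both scalings remove a shift between libraries by construction, and whether the shift is real was not tested. The 6 genes given by identifier met the rule under each of these 4 scalings, with ENSBTAG00000030910 at 0.999696 FPKM in its highest SCNT library after quantile normalization.

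**Figure D5:**
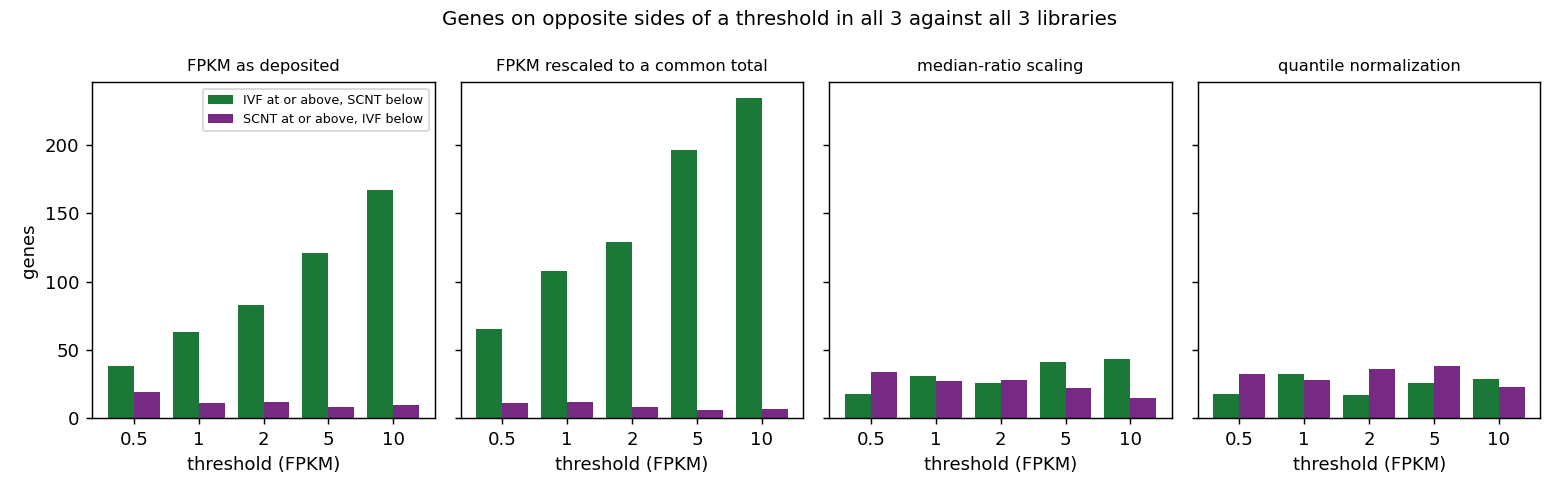
Number of genes at or above a threshold in all 3 IVF and below it in all 3 SCNT libraries (green), and the reverse (purple), for 5 thresholds in FPKM and 4 scalings. For FPKM as deposited and rescaled to a common total of 1000000, which also raises the limit, the green bars are higher at each threshold, with 63 against 11 genes at 1 FPKM as deposited, while with median-ratio scaling and quantile normalization the bars are close at 1 FPKM, at 31 against 27 and 32 against 28.

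The division by oocyte level was 25 under 1 FPKM, 29 mixed and 9 at 1 FPKM or more for FPKM as deposited, 36, 40 and 14 of 90 genes after rescaling to the mean total, and 13, 14 and 4 of 31 genes with median-ratio scaling. With quantile normalization it was 7, 11 and 14 of 32 genes, so the class at 1 FPKM or more in all oocyte libraries became the largest of the 3.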

How the data were processed

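Total RNA from pooled oocytes or embryos was made into amplified cDNA and sequenced, and the protocols in the labels describe no step that marks strand, so overlapping antisense genes and near-identical copies are uncertain. Expression came as FPKM in a single table that the authors deposited, covering 24616 genes and 9 libraries. Among the tools in the submitters' processing notes are RSEM 1.2.12, StringTie 1.0.4, HISAT 0.1.6 and Bowtie2 2.2.5, with the build UMD3.1. The sources used here do not say which of them made the FPKM. Amplified low-input libraries are noisy for genes with few molecules, and FPKM is relative to each library's own total, so a change in RNA per embryo does not show in it.

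Groups came from the sample titles. The 63 genes were selected by their FPKM in the IVF and SCNT libraries. The genes, lists and tests were chosen with earlier results of these data known. Limma 3.58.1 in R 4.3.3 was fitted to log2(FPKM + 1) of all 9 libraries, with a term per group and a mean-variance trend, over the 9458 genes that reached 1 FPKM in 3 or more libraries. P-values were adjusted by Benjamini-Hochberg within each comparison over all 9458 genes, with a threshold of 0.05. All 63 genes passed this filter through the IVF libraries that chose them. The fit was tested on simulated data, with changes larger than the median change of the 63 genes between IVF and SCNT embryos. That test is therefore no check of calls on changes as small as most of theirs. Counts and figures used Python 3.11.15, numpy 2.4.6, pandas 2.3.3 and matplotlib 3.10.9.

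None of the identifiers (0 of 24616) matched a symbol in the RefSeq gene table (ARS-UCD2.0). Gene lists, cell type markers, functions, positions and sequences were therefore not analysed here. In each oocyte class, the identifiers given are the 2 genes with the widest gap on the log2(FPKM + 1) scale between the lowest IVF and the highest SCNT library. Alternatives were a pseudocount of 0.1, no filter on low values, 4 other scalings, a fit of only the groups compared, a replicate block, leaving out each library, and other thresholds. The thresholds of 5 and 10 FPKM, quantile normalization and the rescaling to the mean total were added after seeing the data. In the rescaled and leave-one-out fits the same 9458 genes were tested.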

Additional observations from a re-analysis of the deposited data

How the results depend on the processing

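The number of genes meeting the rule was 38 at 0.5 FPKM, 83 at 2 FPKM, 121 at 5 FPKM, 167 at 10 FPKM, 31 under median-ratio scaling, 32 under quantile normalization, 90 when each library was rescaled to the mean of the 9 totals and 108 when rescaled to 1000000, which also raises the limit. With 1 IVF or SCNT library left out it ran from 84 to 155, which is higher by construction, since fewer libraries have to meet the rule; it was 128, 135 and 112 without IVF replicates 1, 2 and 3 and 84, 155 and 102 without SCNT replicates 1, 2 and 3. The number of the 63 genes called by limma between SCNT and IVF embryos was 1 with a pseudocount of 0.1 and 15 with only the 6 libraries compared, and ran from 2 to 21 with 1 library left out, while the calls over all 9458 genes went from 17 to 7, to 1265 and to between 7 and 1606. Between IVF embryos and oocytes it was 18 with quantile normalization, when 45.1% of all genes were called. It ran from 18 to 27 with 1 library left out, when 45.2% to 56.8% of all genes were called. Between SCNT embryos and oocytes it was 30 with quantile normalization, when 54.7% of all genes were called. It ran from 8 to 14 with 1 library left out, when 42.9% to 49.8% of all genes were called. The cause of these moves was not tested. No pairing by replicate number was seen: deviations of same-numbered libraries from their group means correlated at -0.17 to -0.00078, above 0.1 in 0 of 9 pairs. So few libraries cannot show that same-numbered pools were handled separately. With the replicate number as a block, limma called 2, 26 and 13 of the 63 genes in the 3 comparisons. In the same order it called 0.0952%, 52.2% and 49.8% of all genes tested. Directions turned for 3 genes, given as log2 changes. ENSBTAG00000003152 from oocytes to SCNT embryos was 0.17 without MII replicate 3 and -0.43 without MII replicate 1, the ends of its range with 1 library left out. ENSBTAG00000027075 from oocytes to IVF embryos was 0.074 without MII replicate 1 and -0.70 without MII replicate 2. ENSBTAG00000030910 from oocytes to IVF embryos was -0.067 with median-ratio scaling, -0.52 with quantile normalization, -0.053 without MII replicate 1 and 0.23 without MII replicate 2. The median of the 63 genes from oocytes to IVF embryos was -0.091 with quantile normalization, a scaling that also took the median of all genes from 0.40 to -0.03. Values this close to 1 FPKM rest on an unknown number of reads, so no counting error could be given for them.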
